A study of Homo sapiens with 2 samples.

Results

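Heat shock proteins and their co-chaperones were examined in HT-29, an established cell line from a human colorectal adenocarcinoma, 72 h after the cells were transfected with small interfering RNA (siRNA). The set was defined by gene symbol, with earlier results of these data known, and the rule itself uses no measured value. It took the HSPA, HSPB, HSPD, HSPE, HSPH, HSP90A, DNAJA, DNAJB and DNAJC prefixes, the BAG genes 1 to 6, HSF1, HSF2, STIP1 and AHSA1. HSPA5, DNAJB9 and DNAJC3 were left out, and no pseudogene fitted. In all 78 of 19775 genes, read by 183 of 54675 probe sets, met this rule, and 63 of them passed a filter on dim signals. No probe set of HSF2 or AHSA1 was used here.

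The baseline culture was given siRNA to firefly luciferase (siLuc), a gene absent from human cells. The other was given siRNA to human IFITM1 (siIFITM1), which encodes a membrane protein induced by interferon. Both were the same line at the same time, and the number and sequence of the siRNAs are not given in the sources used here. There was 1 single-colour array per siRNA, so the spread between replicates is unknown and differences are described by size, with no test. Values are MAS5 signals, given for siLuc first and siIFITM1 second, and log2 ratios are of siIFITM1 over siLuc. The brightest probe set stood for each gene, and signals of different probe sets were not set against each other.

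IFITM1 itself read 640 and 237, so 37.1% of its siLuc signal remained. The 18 hybridisation control probe sets had a median log2 ratio of -0.075 (range -0.13 to 0.052). Of 11 colon epithelial markers, 8 passed the filter, with log2 ratios from -0.037 for KRT8 (34468 and 33603) to 0.36 for KRT20, while CDX1, CDX2 and GPA33 did not pass. Of 16 markers of fibroblasts, leukocytes and endothelium, 6 passed. Of these LUM was higher on the siIFITM1 array (132 and 386, 1.54) and the other 5 were lower, down to -0.84 for VIM (97.7 and 54.4). The part of such cells in the chaperone values was not tested.

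Chaperones of the HSP70 class bind exposed hydrophobic stretches of unfolded proteins and release them in a cycle driven by ATP. J-domain proteins, named DNAJ, deliver clients and start ATP hydrolysis, and nucleotide exchange factors of the HSP110 and BAG groups reset the cycle. HSP90 completes the folding of kinases and steroid receptors, with STIP1 passing clients to it. The transcription factor HSF1 switches many of these genes on under protein stress by binding heat shock elements, which are inverted repeats of GAA. In tumour cells, chaperones are commonly present without any heat shock.

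Heat shock elements were looked for because HSF1 binds such sequences. The 250 bases before each RefSeq gene start were searched for GAANNTTCNNGAA and its reverse complement TTCNNGAANNTTC, in which 3 units alternate. Of the 69 members with a promoter in the RefSeq table (GRCh38.p14), 5 held such an element (7.25%), against 0.557% of the 27305 genes with a promoter there. The elements are shown 5′ to 3′ on the strand of the gene, with the matched letters in capitals.
DNAJB6, chr7:157336867-157336891, plus strand: agccgaGAACCTTCGCGAAggtggg
HSP90AA1, chr14:102087114-102087138, minus strand: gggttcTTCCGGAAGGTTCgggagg
HSP90AB1 distal, chr6:44247772-44247796, plus strand: agcaggTTCTGGAAGATTCatgggc
HSP90AB1 proximal, chr6:44247825-44247849, plus strand: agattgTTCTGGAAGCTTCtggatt
HSPA6, chr1:161524460-161524484, plus strand: gaaaggTTCGCGAAAGTTCgcggcg
HSPD1, chr2:197500062-197500090, minus strand: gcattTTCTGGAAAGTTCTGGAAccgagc

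In HSPD1 the match ran on into a further unit, and HSP90AB1 held a pair of elements that do not overlap. A match describes the letters only. The shorter forms with 2 units, GAANNTTC or TTCNNGAA, which every longer match also contains, were present in 18 of the 69 members (26.1%) and in 14.0% of genes with a promoter.

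Transcripts of the chaperone members past the filter differed little between the arrays, as did those of most genes. Probe sets that name several genes, among them those of HSPA1A and HSPA1B, are not in the counts below. Of the 63 members past the filter, 32 had a log2 ratio above 0 and 31 below. Their median was 0.0030, against -0.018 over all 12225 genes past the filter. None was 2-fold higher and none 2-fold lower, where 1.01% and 2.01% of all genes past the filter were, together 3.03%. At 1.5-fold, 2 members were higher and 4 were lower, and the background was 4.18% and 7.34%. Whole-culture RNA does not separate a change in the number of expressing cells from a change in RNA per cell.

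Log2 ratios spread more widely among dimmer than among brighter members. At or above the 75th percentile of signal (393), called brighter here, lay 50 members, with an SD of log2 ratios of 0.23 over genes and a range of -0.49 to 0.70. All 7793 brighter genes had an SD of 0.26. The 13 dimmer members had an SD of 0.50 and the 4432 dimmer genes 0.57. Among brighter members 1 passed 1.5-fold, and it was higher. Of all brighter genes 3.63% passed 1.5-fold, and 1.86% were higher. At 2-fold, 14 of the 7793 brighter genes were higher and 7 lower. The lack of a 2-fold difference among 50 brighter members thus does not set them apart. The median of brighter members was 0.016, against 0.0031 for all brighter genes. Probe sets that read one gene differed too, with a pooled SD over all genes of 0.19 where both were brighter and 0.50 where both were dimmer. By that yardstick 37 of 50 brighter members (74.0%) lay within 0.19 of 0, as did 60.7% of all brighter genes. Of the rest, 10 were above and 3 below. That split was not counted over all brighter genes, so it is not read as a lean of the members. Averaging probe sets put DNAJA4 at -0.029 and DNAJC4 at -0.21, both among the 10 above. It put DNAJC10, among the 3 below, at -0.046.

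**Figure D1:**
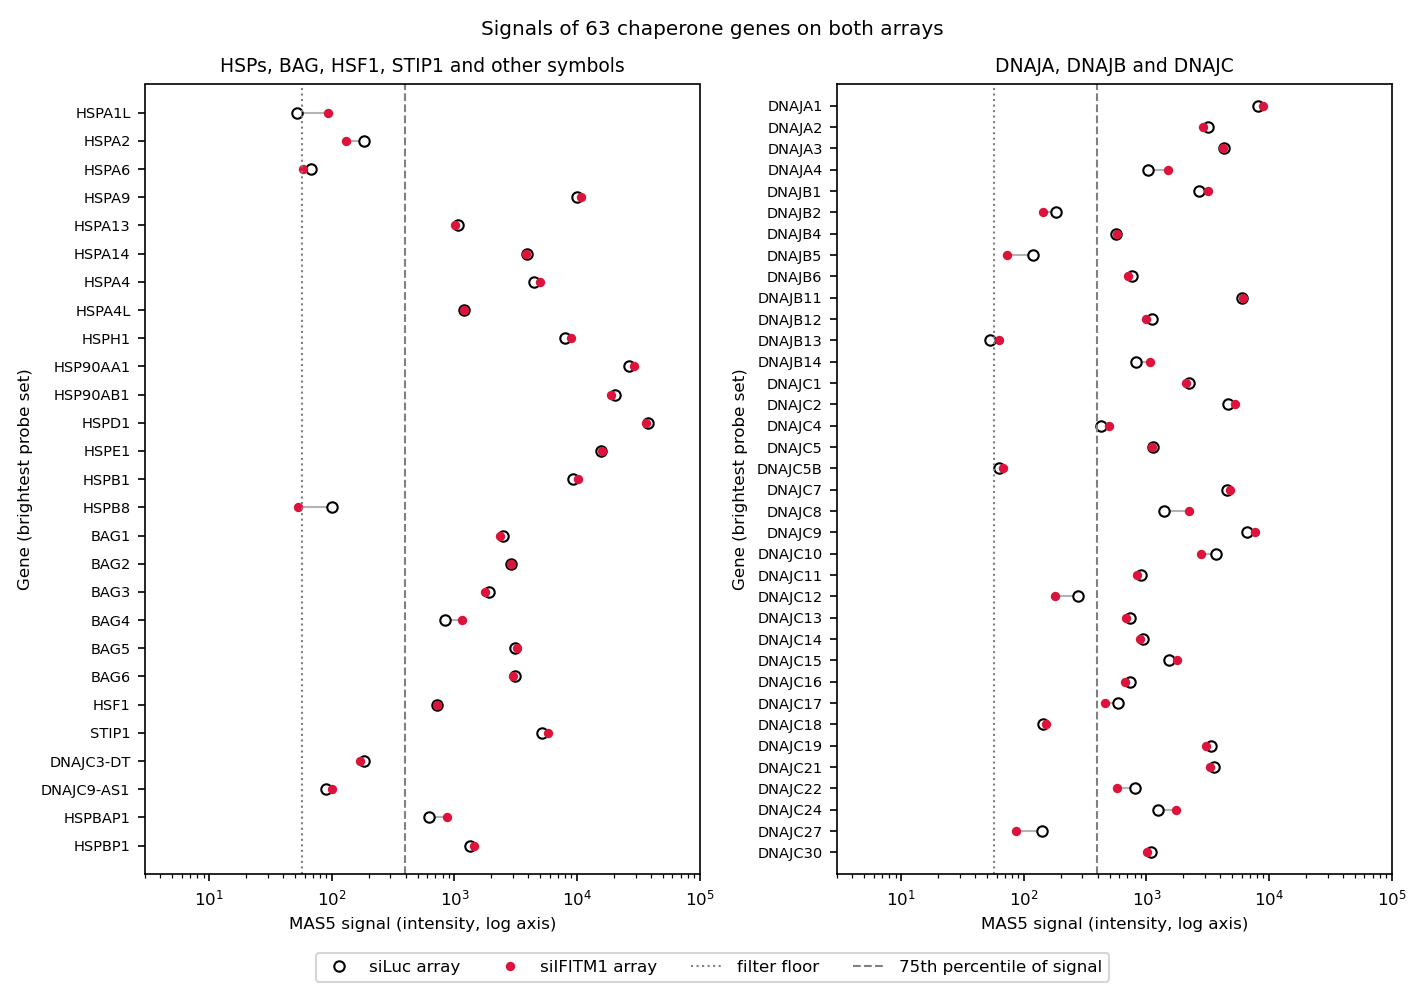
MAS5 signal (log axis) of the brightest probe set of each of the 63 chaperone genes past the filter, on the siLuc array (open) and the siIFITM1 array (red). Dotted and dashed lines are the filter floor (57.4) and the 75th percentile of signal (393). The 2 points of most genes to the right of the dashed line touch, and the widest gaps lie near the floor.

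The HSP70 class was close to level in its brighter members. HSPA9, the mitochondrial HSP70 that pulls proteins through the inner membrane, read 10013 with siLuc and 10667 with siIFITM1 (log2 ratio 0.091). Its 3 probe sets past the filter lay between 0.091 and 0.27. HSPA13, a member of the endoplasmic reticulum, read 1077 and 1014 (-0.086). HSPA14, which works at the ribosome, read 3887 and 3819 (-0.025), with other probe sets up to 0.21. At their brightest probe sets all 3 differed by less than the 0.19 SD between brighter probe sets of the same gene. Another brighter probe set was beyond that SD for HSPA9 (0.27) and for HSPA14 (0.21).

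Dimmer HSP70 genes went both ways. HSPA6, the strictly stress-inducible HSP70 gene whose element is shown above, read 67.1 and 57.8 (-0.22), close to the floor of 57.4 on both arrays. HSPA2, best known from the testis, read 184 and 131 (-0.49). HSPA1L, another testis-enriched member, read 51.7 and 93.1 (0.85). With the siLuc signal raised to the floor, HSPA1L was at least 1.62-fold higher by that probe set. Its other probe set read 6.58 and 7.04, below the filter. HSPA12A and HSPA12B, distant relatives, were below the filter.

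Major cytosolic HSP70 genes were read only by probe sets that name several genes, so they were outside the rule and entered no count. The stress-inducible pair HSPA1A and HSPA1B was read by 3 such probe sets, 1 of which also names HSPA1L. They read 9776 and 11837 (log2 ratio 0.28), 5529 and 7088 (0.36), and 6349 and 8438 (0.41). All 3 were higher on the siIFITM1 array by more than the 0.19 SD between brighter probe sets of the same gene. The 4 probe sets of HSPA8, the constitutive HSP70, also name small nucleolar RNAs of its introns. Their log2 ratios were 0.064 to 0.13, for example 29239 and 30563 at the lowest, all within that SD.

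HSP110 proteins are nucleotide exchange factors for HSP70. HSPH1 read 7968 with siLuc and 8883 with siIFITM1 (0.16), and all 3 of its probe sets were above 0, from 0.15 to 0.23. HSPA4 read 4418 and 4959 (0.17), but its 4 probe sets ran from -0.15 to 0.24 and did not share a direction. HSPA4L read 1191 and 1205 (0.017), with its other probe set at -0.13. The median of the 3 genes was 0.16, against 0.0031 for all brighter genes. However, it was 0.017 without probe sets of suffix _s_at or _x_at, and 0.058 when probe sets were averaged. These suffixes are read here as shared probes, and whether the probes are shared with other genes was not checked.

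The cytosolic HSP90 genes had small log2 ratios of opposite sign. HSP90AA1, the inducible form, read 26662.5 and 28920.4 (0.12), and its 4 probe sets agreed closely, from 0.093 to 0.16. HSP90AB1, the constitutive form, read 20275.5 and 18967 (-0.096), with 3 probe sets from -0.096 to 0.050. STIP1, the adaptor that joins HSP70 to HSP90, read 5202 and 5784 (0.15), and its other probe set was at 0.0079. Each was within the spread between probe sets of the same gene.

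Mitochondrial HSP60 and its lid, HSP10, are transcribed from neighbouring genes that face away from each other. HSPD1, which encodes HSP60, read 37944 and 36829 (-0.043, but 0.057 after quantile normalization), with 3 probe sets from -0.063 to -0.038. HSPE1, which encodes HSP10, read 15718 and 15989.5 (0.025). Neither differed by more than the control probe sets did.

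Small heat shock proteins hold unfolding clients in soluble complexes, and HT-29 cells showed 2 of the 7 genes past the filter. HSPB1 read 9319 and 10153 (0.12). HSPB8, which works with BAG3 in the disposal of aggregates, read 101 and 52.6 (-0.94), the lowest ratio of any member past the filter. Its siIFITM1 signal was under the floor, so HSPB8 was at least 1.76-fold lower by that probe set. The other probe set of HSPB8 read 11.2 and 103 and was therefore opposite in direction. HSPB2, HSPB3, HSPB6, HSPB7 and HSPB9, known mainly from muscle or testis, were below the filter on both arrays.

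**Figure D2:**
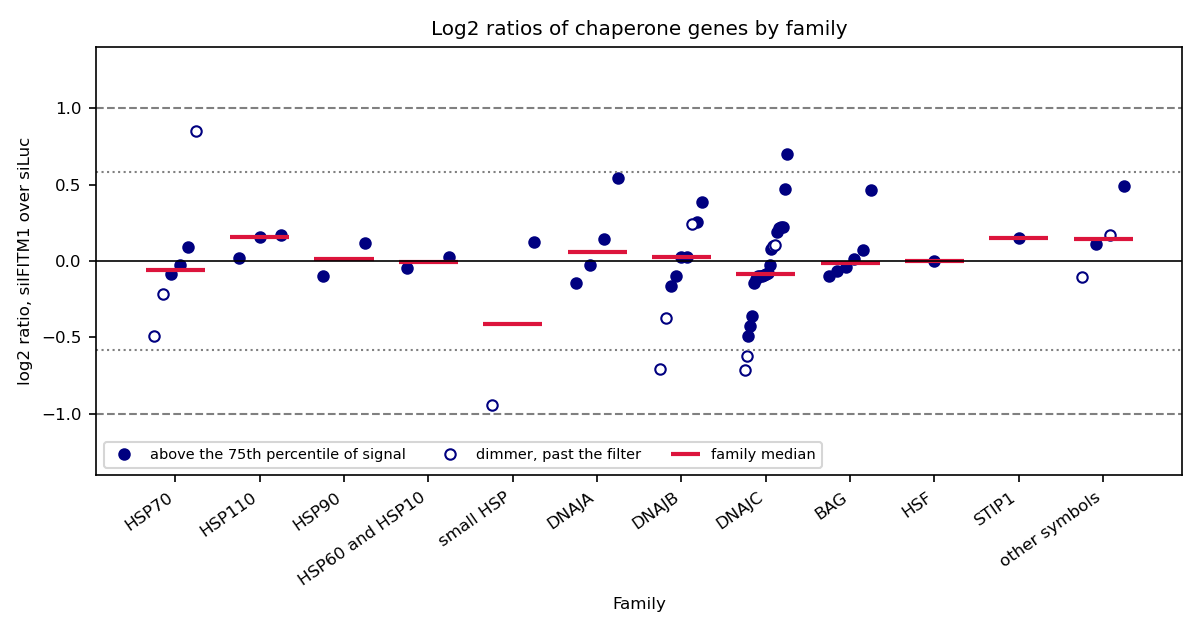
Log2 ratio of siIFITM1 over siLuc for each of the 63 genes, by family, with brighter genes filled and dimmer genes open and the family median as a red bar. Dashed and dotted lines mark 2-fold and 1.5-fold. No gene reaches 2-fold, and family medians lie between -0.085 and 0.16 except for small HSPs at -0.41, which rest on 2 genes.

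DNAJA proteins are general HSP70 partners that bind clients themselves. DNAJA1 read 8146 and 8993 (0.14), and both of its probe sets were above 0. DNAJA2 read 3189.5 and 2889.8 (-0.14), and both of its probe sets were below 0. DNAJA3, the mitochondrial form, read 4271 and 4196 (-0.025). DNAJA4 read 1032 and 1503 (0.54), the highest of the family. Another brighter DNAJA4 probe set read 613 and 431 (-0.51), and the remaining 2 lay at -0.15 and -0.0051. Probe sets of DNAJA4 thus disagreed by more than the size of either ratio.

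In the DNAJB family, DNAJB1 and DNAJB14 were higher on the siIFITM1 array at every probe set past the filter. DNAJB1, the stress-inducible HSP40, read 2667 and 3178 (0.25), and its other probe set read 1855 and 2238 (0.27). DNAJB14, a J-protein of the endoplasmic reticulum membrane, read 818 and 1070.1 (0.39), and its other probe sets were at 0.33 and 0.46. All 5 of these probe sets were brighter and beyond the 0.19 SD. DNAJB12, the close relative of DNAJB14, was not higher: it read 1107 and 989.9 (-0.16), with 4 probe sets from -0.35 to 0.024. Each of the paired probe sets of DNAJB1 and DNAJB14 reads the same RNA, so they are not replicates of the transfection.

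Other DNAJB genes were nearer level or dim. DNAJB11, a luminal partner of HSPA5, read 6002 and 6122 (0.029). DNAJB4 read 561 and 572 (0.029), while its other probe set read 416 and 606 (0.54). DNAJB6, an inhibitor of polyglutamine aggregation with the element shown above, read 762 and 713 (-0.095). A pair of brighter probe sets that name both DNAJB6 and TMEM135 stood at 0.26 and 0.33, so the direction for DNAJB6 was not settled. DNAJB2, a neuron-enriched form, read 184 and 142 (-0.38), and DNAJB5 read 119 and 73.2 (-0.70). DNAJB13, a protein of sperm tails and cilia, read 52.9 and 62.4, around the floor, and DNAJB7 and DNAJB8 were below the filter.

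DNAJC is the largest and most varied group, with 26 members of which 23 passed the filter. Their median was -0.085, with 9 above 0 (39.1%) and 14 below, and brighter members had 7 above (36.8%) and 12 below. Of all genes past the filter 47.4% were above 0, with a median of -0.018, and of all brighter genes 50.5% were above 0. When probe sets were averaged, the DNAJC median was -0.020, against -0.028 for all genes. DNAJC8, a protein associated with splicing, was the only brighter member past 1.5-fold. It read 1379.6 with siLuc and 2239 with siIFITM1 (0.70). Its other probe sets read 764 and 1088 (0.51) and 219 and 254 (0.21), so all 3 were higher on the siIFITM1 array. Without probe sets of suffix _s_at or _x_at, only the ratio of 0.21 was left for DNAJC8. It came from a dimmer probe set and was within the 0.50 SD of such probe sets. Averaging probe sets put DNAJC8 at 0.47. DNAJC24, an enzyme cofactor of diphthamide synthesis, read 1252 and 1733 (0.47) on the 1 probe set past the filter.

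DNAJC proteins of the nucleus, ribosome and cytosol lay on both sides of 0. DNAJC9, a histone chaperone, read 6599 and 7684 (0.22), with its other probe set at 0.084. DNAJC2, the ribosome-bound partner of HSPA14, read 4639 and 5288 (0.19). DNAJC7, a cytosolic adaptor of HSP70 and HSP90, read 4524 and 4786 (0.081). DNAJC17, a spliceosomal J-protein, was below 0 and read 589.7 and 459 (-0.36). DNAJC21, which matures the large ribosomal subunit, read 3547 and 3315 (-0.097). All 6 DNAJC21 probe sets past the filter were below 0, and the furthest, which read 122 and 42.0, was at -1.54.

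J-proteins of the mitochondria differed among themselves. DNAJC15 and DNAJC19 are paralogs at the import motor of the inner membrane. DNAJC15 read 1519.6 and 1772 (0.22), with 3 probe sets from 0.065 to 0.27. DNAJC19 read 3369 and 3046 (-0.15), with its other probe set at -0.18. The paralogs thus lay on opposite sides of 0 at every probe set past the filter. The smallest of the 5 ratios in size, 0.065, and the largest, 0.27, came from dimmer DNAJC15 probe sets. Both were within the 0.50 SD of such probe sets. Both DNAJC19 probe sets were brighter and within the 0.19 SD of brighter probe sets. Only the brightest DNAJC15 probe set, at 0.22, was beyond that SD. DNAJC30, which acts on the respiratory chain, read 1087 and 1019 (-0.092), and its dimmer probe set read 147 and 80.6 (-0.87). DNAJC11, of the cristae-organising complex, read 898 and 841 (-0.095), with its other probe set at 0.12.

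In the endoplasmic reticulum, DNAJC10 reduces disulfides of misfolded proteins. It read 3724 and 2778 (-0.42), but its 5 probe sets past the filter ran from -0.42 to 0.37. DNAJC1 read 2211 and 2084 (-0.085), and its 3 probe sets were all below 0, down to -0.24. DNAJC22 read 811 and 577 (-0.49), the lowest brighter member, with other probe sets at -0.82 and -0.28. All 3 DNAJC22 probe sets were therefore lower on the siIFITM1 array, as were both DNAJC27 probe sets past the filter. DNAJC27, a J-domain protein with a GTPase fold, read 141 and 85.9 (-0.71) at its brightest probe set. DNAJC12, a partner of aromatic amino acid hydroxylases, read 275 and 178 (-0.62), with its other probe set at -0.14.

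The remaining DNAJC genes past the filter were within 0.22 of 0 at their brightest probe set. DNAJC5, the cysteine string protein of secretory vesicles, read 1121 and 1100.3 (-0.027), and another probe set read 231 and 416 (0.85). DNAJC4 read 428 and 497 (0.21), but a dimmer probe set read 247 and 121 (-1.04), one of the 2 member probe sets past the filter that were 2-fold lower. The other was that of DNAJC21, and 0 of the 138 were 2-fold higher. Over all 23024 probe sets past the filter that name 1 gene, 2.06% were 2-fold lower and 1.34% higher. DNAJC13 (an endosomal protein), DNAJC14 and DNAJC16 had log2 ratios of -0.10, -0.080 and -0.12. DNAJC18 and DNAJC5B, both dim, had 0.096 and 0.10. DNAJC6 and DNAJC5G were below the filter, and DNAJC28 read 23.3 and 68.9.

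**Figure D3:**
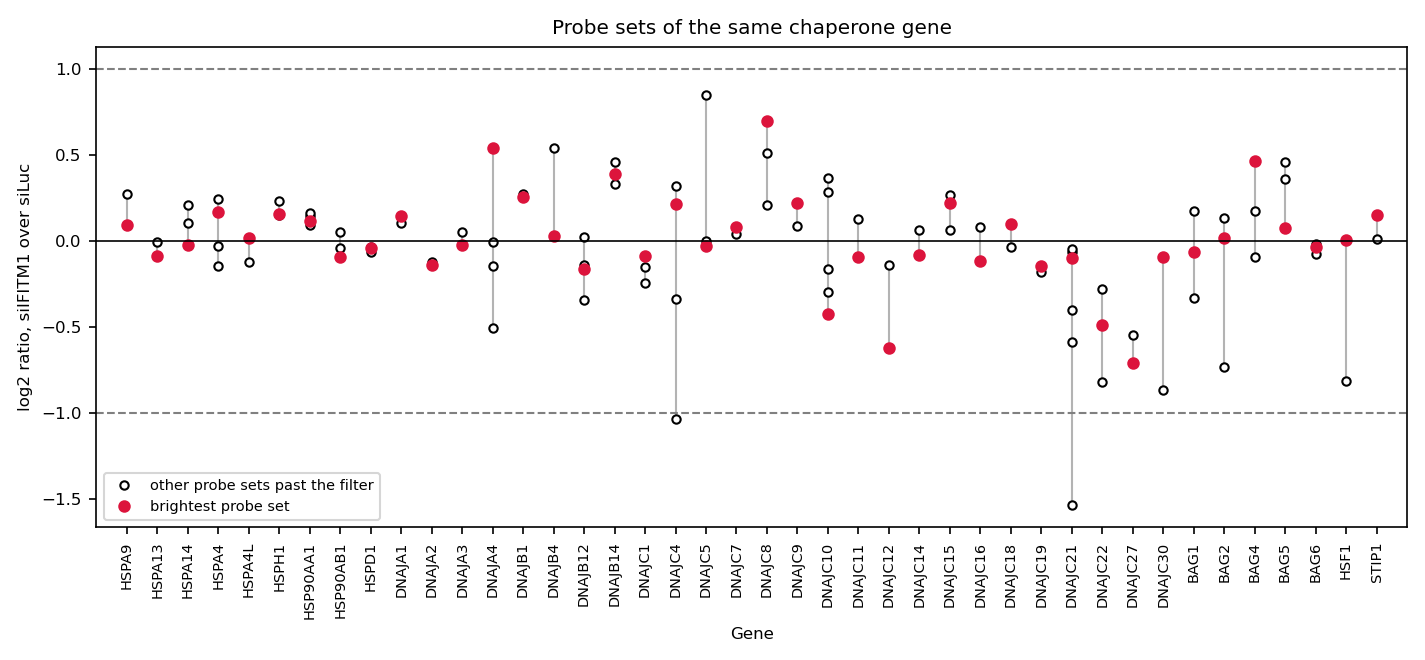
Log2 ratio of every probe set past the filter for the 42 chaperone genes with several, with the brightest in red, the others open, and a grey line over their range. Dashed lines mark 2-fold. Probe sets of 24 genes (57.1%, against 48.4% of all 6087 genes with several) keep to one side of 0, as for DNAJB1, DNAJB14, DNAJC8 and DNAJC22, and those of the rest cross it, as for DNAJA4, DNAJC4 and DNAJC10.

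Most BAG proteins bind the ATPase domain of HSP70 and release its nucleotide. BAG4, which also restrains death receptors, read 836 and 1153 (0.46), with other probe sets at 0.17 and -0.094. BAG5 read 3106 and 3266 (0.072), and all 3 of its probe sets were above 0, up to 0.46. BAG3, an HSF1 target that works with HSPB8, read 1911 and 1787 (-0.097). BAG1 read 2466 and 2355 (-0.067), with probe sets from -0.33 to 0.17. BAG2, an inhibitor of the ubiquitin ligase STUB1, read 2877 and 2907 (0.015), while a dimmer probe set read 292 and 176 (-0.73). BAG6, which escorts membrane proteins, read 3090.1 and 3011 (-0.037), and its 3 probe sets lay between -0.076 and -0.021.

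HSF1, the regulator, was level at its brightest probe set, which read 720.3 and 722 (0.0030). Its other probe set read 223 and 126 (-0.82), and the mean of both was -0.41. The 15 members past the filter with a heat shock element of 2 units or more had a median of 0.029 and 10 were above 0. Those 41 without one had a median of -0.037 and 18 were above 0. Among brighter members the median was 0.073 with such an element, with 9 of 12 above 0, and -0.026 without, with 15 of 32 above 0. Over all brighter genes 50.5% were above 0. The 5 genes with the longer element, shown above, had a median of -0.095, with HSP90AA1 above 0 and the other 4 below. Of those 4, HSPD1 was above 0 after quantile normalization (0.057), and DNAJB6 had probe sets shared with TMEM135 above 0. These shares are descriptions, and the difference between genes with and without the letters was not tested.

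The prefixes also caught 7 symbols that are neither chaperones of these families nor J-proteins, 5 of them long noncoding RNAs. HSPBAP1, which binds HSPB1, read 621 and 873 (0.49) on its only probe set. HSPBP1, a nucleotide exchange factor of HSP70, read 1329.9 and 1439 (0.11). Noncoding DNAJC9-AS1 had 0.17 and DNAJC3-DT had -0.11, while DNAJB8-AS1 and HSPA2-AS1 were below the filter on both arrays. DNAJC27-AS1 was also below the filter and read 65.9 and 28.5.

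**Figure D4:**
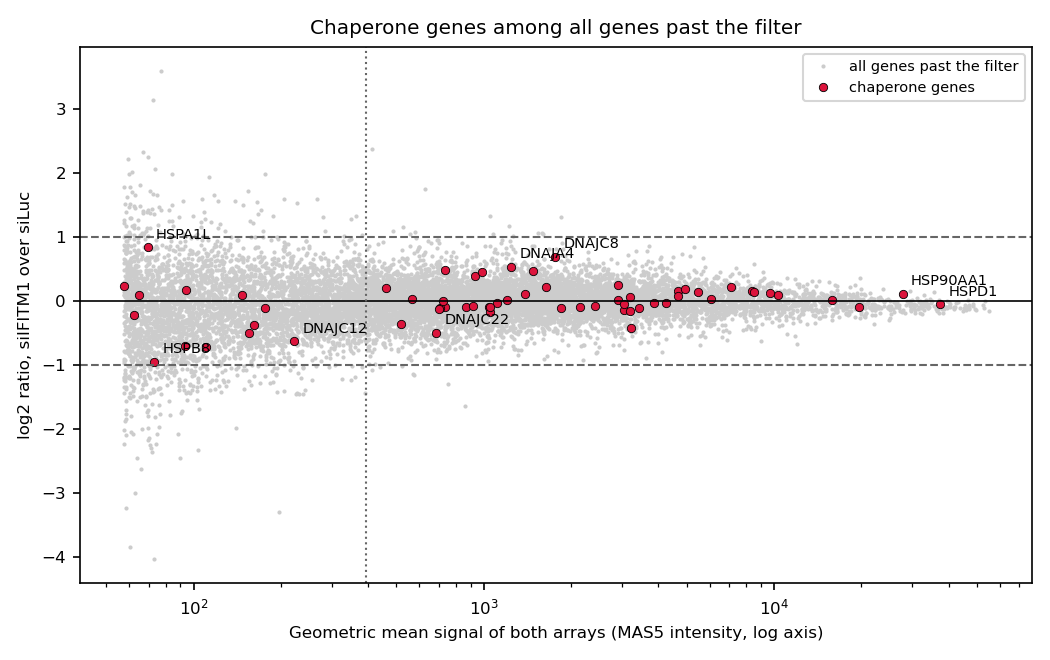
Log2 ratio against the geometric mean signal of both arrays (log axis) for the 12225 genes past the filter (grey) and the 63 chaperone genes (red). Dashed lines mark 2-fold and the dotted line the 75th percentile of signal (393). The red points lie inside the grey cloud, which narrows from the dim genes on the left to HSP90AA1 (0.12) and HSPD1 (-0.043) on the right.

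Other genes of protein folding gave a similar picture. From a list of 42, 36 passed the filter, with a median of 0.021, 21 above 0 and 15 below. Over all genes past the filter the median was -0.018, and 47.4% were above 0. Of those genes 3.03% passed 2-fold, and at 1.5-fold 4.18% were higher and 7.34% lower. In the list 0 passed 2-fold, and at 1.5-fold 1 was lower. That gene was SIL1, an exchange factor of HSPA5, which read 467 and 305 (-0.62).

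Of 12 partners of HSP90, all brighter, 9 were above 0 (against 50.5% of all brighter genes), with a median of 0.050. The HSP90s outside the cytosol, HSP90B1 and TRAP1, were at -0.064 and 0.016. FKBP4, an immunophilin of steroid receptor complexes, read 3137 and 4494 (0.52), and its relative FKBP5 read 1286 and 1612 (0.33). CHORDC1, a partner that responds to stress, read 2306 and 1888 (-0.29), and PPID, another immunophilin, was at -0.17. Of 8 listed subunits of the cytosolic chaperonin TRiC, 7 had a value here. These lay between -0.11 and 0.12, with 2 above 0 and 5 below. Among them were CCT8 at 0.12, CCT6A at -0.11, CCT2 at 0.10 and CCT7 at -0.082. Prefoldin hands actin and tubulin to TRiC. Of its 6 listed subunits 5 had a value, and 4 of these were above 0. The TRiC and prefoldin sets are too small to set against the 50.5% of all brighter genes above 0. PFDN1 was at -0.26, PFDN2 at 0.11, PFDN4 at 0.082 and VBP1 at 0.045.

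Factors of mitochondrial folding and nucleotide exchange went both ways. GRPEL1, the exchange factor of HSPA9, read 4799 and 5771 (0.27), and LONP1, the matrix protease, read 1742 and 1241 (-0.49). HYOU1, a large chaperone of the endoplasmic reticulum, was at -0.12. Of the remaining relatives, the HSF1 inhibitor gene HSBP1 was at 0.075, the collagen chaperone gene SERPINH1 at -0.20 and the ubiquitin gene UBB at -0.067. CRYAA, CRYAB and HSF4 were below the filter.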

How the data were processed

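Total RNA was column purified, amplified and labelled as biotin cRNA, per the labels' protocols. The deposited values are intensities on a linear scale, made with MAS5, per the submitters' processing notes, in a version not given in the sources used here. Both arrays had a mean of 500.1 after 2% of probe sets was trimmed at each end, so they shared a scale. Detection calls were not used here. Precision is limited by the number of arrays.

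Of 54613 probe sets that are not controls, 41091 named 1 gene, 1801 several and 11721 none in the platform annotation. Symbols were updated through RefSeq (GRCh38.p14), with 99.9% matched. Signals were taken to log2 without further scaling. The brightest probe set stood for a gene, which passed if its mean log2 signal reached the median over probe sets (a signal of 57.4). A gene was called at 2-fold. A bound raises a signal below the floor to it, and takes no account of error in the other signal. The SD between probe sets of the same gene is pooled over genes with several. Every member past the filter was named. The members and lists were chosen with earlier results of these data known. Promoters came from RefSeq. The calculation was tested on simulated data. The software was matplotlib 3.10.9, statsmodels 0.14.6, scipy 1.17.1, pandas 2.3.3 and numpy 2.4.6 under Python 3.11.15.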

Additional observations from a re-analysis of the deposited data

Results flagged for a closer look

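A few probe sets that stood for no gene past the filter read above the siLuc array by 2-fold or more, with a siIFITM1 signal above the floor of 57.4. Those of HSPB8 (11.2 and 103, log2 ratio 3.20), DNAJB13 (14.0 and 74.3, 2.41), HSPA6 (25.4 and 71.5, 1.49) and DNAJC21 (26.6 and 63.1, 1.25) belong to genes whose brightest probe set was used. The probe set of DNAJC28 (23.3 and 68.9, 1.56) was the only one of its gene. All 5 siLuc signals were below the floor. Raised to it, the folds were at least 1.79 for HSPB8, 1.30 for DNAJB13, 1.25 for HSPA6, 1.20 for DNAJC28 and 1.10 for DNAJC21. The same rule turned round gave 4 probe sets that were 2-fold lower from a siLuc signal above the floor, those of DNAJC21, DNAJC4 and DNAJC27-AS1 described above and one of DNAJC5B (61.0 and 9.95, -2.62). Of 120 member probe sets that stood for no gene past the filter, 4.17% were thus higher and 3.33% lower, against 2.85% and 3.93% of all 28866 such probe sets. At their brightest probe sets HSPB8, HSPA6 and DNAJC21 had log2 ratios of -0.94, -0.22 and -0.097, opposite in sign.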

How the results depend on the processing

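With 1 array per siRNA, no array could be left out, and nothing here measures variation between cultures. No paired analysis was possible because each group had 1 sample. The median over members stayed between -0.0093 and 0.037, and the share above 0 between 49.2% and 55.6%, under median centring, quantile normalization, removal of a loess trend (span 0.3), omission of probe sets with shared probes, averaging of probe sets, a pseudocount of 32, a stricter filter at the 75th percentile, and no filter. Signals raised to the floor and protein-coding members alone, both chosen after seeing the data, also stayed within these ranges. All genes moved as well, with a median from -0.030 to 0.016 and a share above 0 from 46.0% to 52.3%. For members and for all genes, the highest values came with median centring. Without a filter 3 members were 2-fold higher (DNAJB7, DNAJB8, DNAJC28) and 4 lower (HSPA12B, HSPB7, HSPB9, DNAJC27-AS1), because dim genes enter. At 1.5-fold the counts were 2 and 4. The small HSP median was 0.12 with the stricter filter, which leaves HSPB1, and -0.94 without shared probes, which leaves HSPB8. HSF1 was at -0.41 over both probe sets. Averaging probe sets changed the sign of 9 brighter members, centring that of DNAJA3 (0.0086), DNAJC5 (0.0068) and HSPA14 (0.0086), quantile normalization that of HSPD1 (0.057), and omission of shared probes that of HSPA4 (-0.15), BAG1 (0.17) and DNAJC11 (0.12). The HSP60 and HSP10 median was 0.025 with centring and 0.046 with quantile normalization, and the BAG median was 0.023 with centring and 0.17 without shared probes, which leaves 3 genes. Averaging probe sets put the HSP70 median at 0.023 and the DNAJA median at -0.0089. The HSP110 median was 0.017 without shared probes.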

Other observations

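Some probe sets name several genes, with a prefix of the rule among their symbols, and stood outside the counts. The probe set of the readthrough HSPE1-MOB4 with MOB4 read 5091 and 5201 (log2 ratio 0.031). That of DNAJC25 and its readthrough with GNG10 read 344 and 376 (0.13). The probe set of HSPB2, C11orf52 and their readthrough read 365 and 307 (-0.25), while the probe set that names HSPB2 alone read 7.63 and 10.5, below the filter. Of all 12 such probe sets 11 were above 0, against 41.5% of all 1097 probe sets past the filter that name several genes. The 11 cover few loci, since 4 read HSPA8, 3 read HSPA1A and HSPA1B, and 2 read DNAJB6 with TMEM135.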
